A study of Mus musculus with 16 samples.

Results

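A group of 135 gene rows was chosen from the count table because each was detected in unstimulated macrophages and was at least 8 times lower after LPS plus IFN-γ. Levels are given as CPM, the counts of a row scaled by the total of its library. A row was a member when its mean over the 8 M0 libraries was at least 20 CPM and at least 8 times the M1 mean plus 0.5 CPM. Of 48440 rows, 2360 reached 20 CPM in M0 and 145 met both thresholds. Removing 3 symbols that end in os and 7 others named in the rule (Cd163, Gm15635, Apoe, Cx3cr1, Card14, Rac1 and Gm43621) left 135. The M0 and M1 values chose the members, so the M1 against M0 difference is given for them as a description, with no test. The comparisons of VLX-1005 with vehicle did not enter that choice. Most members, however, passed the count filter of the M1 test only through their M0 counts.

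The cells were bone marrow–derived macrophages (BMDMs), grown from marrow of 8-week-old female NOD.hALOX12 mice for 7 days with 10 ng/mL M-CSF. In these mice human ALOX12 replaces mouse Alox15, and all 4 groups carried this replacement. Vehicle (0.1% DMSO) or 10 µM VLX-1005, an inhibitor of 12-lipoxygenase (12-LOX), was added for 1 hour. M1 cells were then stimulated with LPS at 10 ng/mL together with IFN-γ at 25 ng/mL, and M0 cells were not. The stimulation lasted 18 hours by the methods and 24 hours by the schematic. The design text also mentions 4 weeks of treatment, and how that relates to these cultures is not clear. The design has 4 libraries of each state under each treatment, named here as M1 or M0, then vehicle or VLX-1005, then the replicate number. Whether the 4 libraries of a group are from different mice is not stated in the sources used here, and p-values therefore reflect a spread that may be technical.

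Macrophages grown in M-CSF are kept alive by signals from its receptor, encoded by Csf1r. They take up dying cells and lipids, digest them in lysosomes, and depend on lineage transcription factors of the ETS and C/EBP families. LPS binds TLR4 and IFN-γ acts through its own receptor. Together these signals induce inflammatory genes, and many genes of the resting state are known to be lowered in the same hours, among them genes of cell division, growth factor signaling and clearance.

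Each row was read together with the gene on the opposite strand, because the sources do not state how strand was handled in counting and rows with high counts mostly had a gene opposite to them. Among the members, 116 of 135 (85.9%) had exons that overlap exons of a gene on the other strand. The same held for 91.6% of the other rows with at least 20 CPM in M0 and for 17.5% of all rows. The shared stretch had a median length of 445.5 bases and ranged from 34 bases (Tmem255b, opposite to Gas6) to 4570 bases (Gm26702, opposite to Ajm1). Only 53 members were annotated as protein coding. Another 49 were antisense genes, 12 lincRNAs, 8 processed transcripts, 8 rows annotated as TEC, 3 processed pseudogenes and 2 miRNAs. Rows that are not protein coding made up 60.7% of the members and 44.1% of the other rows with at least 20 CPM in M0. For 103 of the 116 pairs, the row of the opposite gene had a lower M0 mean than the member row, and for 84 it had under 1/10 of it. The median over those opposite genes' own rows was 1.68 CPM in M0. A pair is written with the member row first and the opposite gene second. The libraries were strand-specific, but without the strand handling it was not established which gene of a pair gave the reads of a row. The same holds for the own rows of opposite genes and markers.

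**Figure D1:**
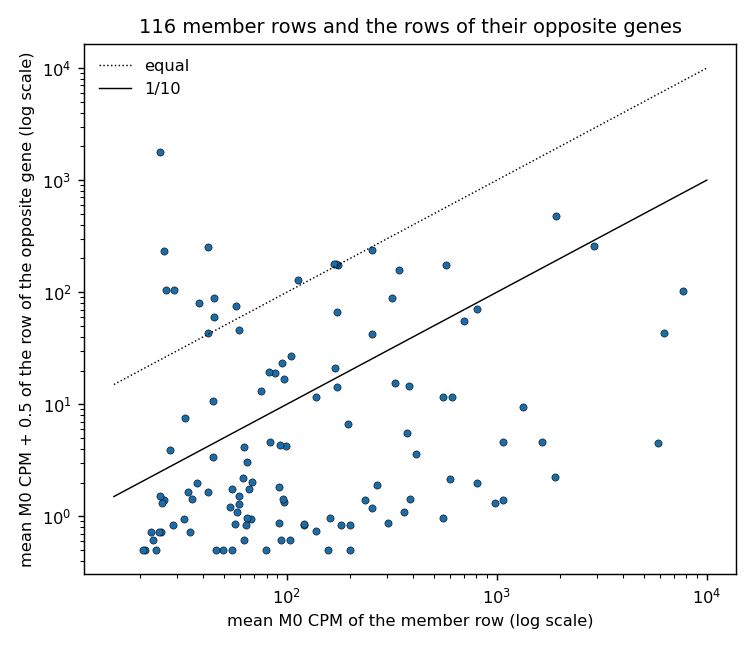
Mean M0 CPM of 116 member rows (x axis, log scale) against the mean M0 CPM plus 0.5 of the row of the gene opposite to each (y axis, log scale), 1 point per member. Points below the dotted line of equality number 103 when no 0.5 is added, and 84 rows of opposite genes were under 1/10 of the member row (solid line).

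Library totals were 939584 to 1158095 counts, so 1 CPM corresponded to about 1 count. M0 and M1 separated on the first principal component, which held 94.8% of the variance among the 500 most variable rows. On the second (0.935%), replicate 3 of both M0 groups and M0 vehicle 2 were separated from the remaining M0 libraries. All 8 macrophage markers had counts in their own rows, though not in every library, with sums of 357 to 424 CPM in M0 and 248 to 305 CPM in M1. Csf1r and Lyz2 made up most of these sums, and the markers differed in direction. With vehicle, Csf1r went from 234 CPM in M0 to 180 CPM in M1, Lyz2 from 113 to 14.2 CPM and Cd68 from 10.6 to 4.36 CPM. Adgre1 went from 17.1 to 37.6 CPM and Cd14 from 3.00 to 18.15 CPM, and Fcgr1, Mertk and Itgam were also higher in M1. The sums of 4 T cell, 4 B cell and 4 stromal markers were at most 3.57 CPM in any library, and the 5 neutrophil markers were at 0 counts in their own rows. Some macrophage markers were also this low in their own rows (Fcgr1 0.453, Mertk 2.30 and Cd14 3.00 CPM in M0 vehicle). Low sums in own rows therefore cannot show whether such cells were absent. Rows opposite to a marker existed for 1 macrophage marker, Csf1r (223 to 285 CPM in M0 and 22.6 to 37.2 CPM in M1), 1 neutrophil marker (0 to 9.43 CPM in M0 and 0 in M1) and 1 stromal marker (at most 2.68 CPM). Sums over 5 dendritic cell markers were 4.02 to 10.6 CPM in M0 and 141 to 214 CPM in M1, with 3 of the 5 at 0 in all libraries. Xcr1 alone carried the higher sum, with group means of 3.45 and 1.12 CPM in M0 and 177 and 168 CPM in M1 (vehicle and VLX-1005), whereas Clec9a went from 5.51 and 4.27 CPM to 1.18 and 0 CPM. Whether they bear on the members' fall was not tested.

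The 135 rows together held 4.92% to 5.33% of the counts of each M0 library and 0.336% to 0.402% of each M1 library. The median member had 88.0 CPM in M0 and 4.80 CPM in M1, and the median M1 level was 5.10% of the M0 level. Ratios of the M0 mean to the M1 mean plus 0.5 CPM had a median of 15.9. They reached at least 16 in 67 members, at least 32 in 27, at least 64 in 14 and at least 128 in 5, with the highest at 328 (Prune2). All M0 libraries lay above all M1 libraries in 133 members. Among all 2360 rows with at least 20 CPM in M0, which the same M0 level selects, 48.9% had no overlap in that direction, and the rule itself favors such rows. The exceptions were Gm43474, with a lowest M0 value of 11.04 and a highest M1 value of 12.9 CPM, and Haus8, with 1.85 and 5.51 CPM. In these bulk samples, fewer cells that carry a transcript and less of it per cell cannot be told apart.

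**Figure D2:**
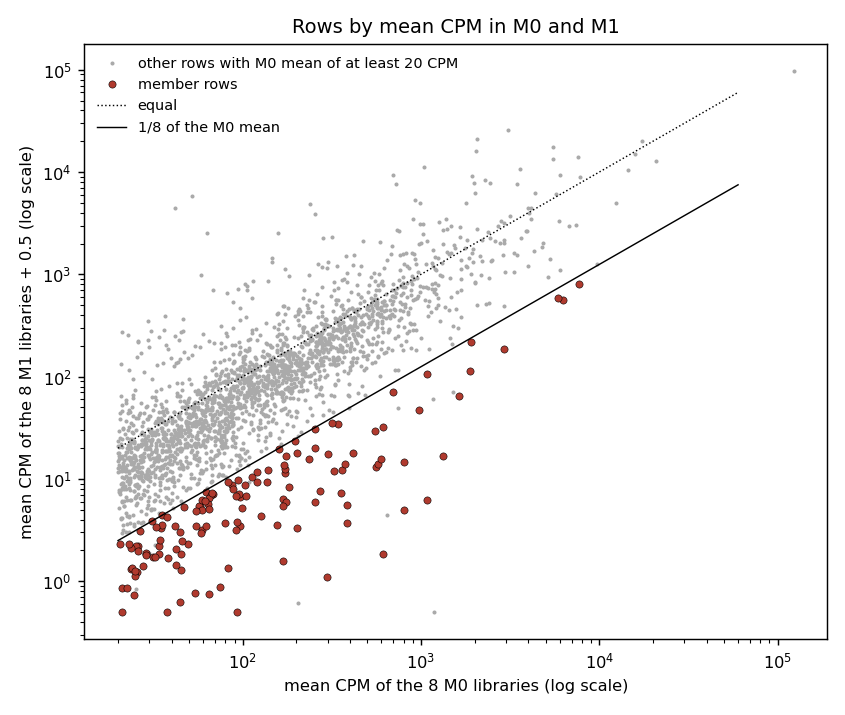
Mean CPM over the 8 M0 libraries (x axis) against mean CPM plus 0.5 over the 8 M1 libraries (y axis), both on log scales, for the 2360 rows with at least 20 CPM in M0. The 135 member rows (red) lie on or below the solid line at 1/8 of the M0 mean, and the grey points below that line are the 10 rows the rule leaves out by their symbols.

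The scale used matters for the size of the fall. Normalization factors (TMM) were 1.16 to 1.20 in M0 and 0.824 to 0.869 in M1, so log2 fold changes after TMM are 0.49 closer to 0 for falling rows than those from plain CPM. The median of all 3453 tested rows was -0.10 after TMM and -0.56 from CPM plus 0.5 (vehicle libraries). The median member was at -3.74 with vehicle and -3.62 with VLX-1005, both on the TMM log2 scale. With TMM-scaled library sizes in the rule, 96 of the 135 rows would have been members. Values per library are CPM in the order of replicates 1 to 4, and each log2 fold change of M1 against M0 is edgeR's estimate after TMM ± SE. This SE, also used for the other edgeR fold changes, was worked back from the test. It is the absolute estimate divided by the square root of the F statistic. With few M1 counts it can be smaller than counting error alone, as for Gm26735, Gm37035 and Gm45449.

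The members are ordered by what the opposite genes encode, in groups made after their values were seen. Genes of lysosomal function and glycan processing stood opposite to 6 members, among them the most abundant. Fdft1 (ENSMUSG00000021273.9, chr14:63145150-63179578 in mm10, minus strand) shares 774 exonic bases with Ctsb, the gene of the lysosomal protease cathepsin B. It had 8710.2, 8057, 7213 and 7787 CPM in M0 vehicle and 7817, 7723, 7014 and 7491 CPM in M0 VLX-1005. In M1 it had 844, 780.3, 711 and 728 CPM with vehicle and 809.6, 824, 822 and 845 CPM with VLX-1005. The lowest M0 library had 7014 CPM, the M1 libraries lay between 711 and 845 CPM, and the log2 fold changes were -2.90 ± 0.07 with vehicle and -2.70 ± 0.07 with VLX-1005. Fdft1 is itself a gene of cholesterol synthesis (squalene synthase), and the row of Ctsb, with 103 CPM in M0 and 36.3 CPM in M1, was far below that of Fdft1. Gm26527 lies opposite to Arsb, the gene of the lysosomal sulfatase arylsulfatase B, and ranged from 990.1 to 1114 CPM in M0 and from 88.5 to 119 CPM in M1. Gm12523, opposite to the lysosomal sorting receptor gene Sort1, had 75.1 CPM in M0 and 0.372 CPM in M1. Gm11748, opposite to Engase, and Tbrg1, opposite to Siae, an enzyme that removes acetyl groups from sialic acid, had M1 means of 11.7 and 18.99 CPM from M0 means of 363 and 160.1 CPM.

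Genes of transcriptional control stood opposite to 8 members, whose ratios had a median of 23.8. Gm26735 (chr13:28943048-28951671, plus strand) shares 2616 exonic bases with Sox4, an SRY-related transcription factor of progenitor cells. It had 1079.6, 922, 1178 and 991 CPM in M0 vehicle and 1183, 1032, 1239 and 977 CPM in M0 VLX-1005. In M1 these became 3.09, 4.13, 3.68 and 1.84 CPM with vehicle and 3.56, 14.9, 6.88 and 7.83 CPM with VLX-1005. The highest M1 library, M1 VLX-1005 2, was still under 2% of the lowest M0 library, and the log2 fold changes were -7.85 ± 0.21 with vehicle and -6.60 ± 0.18 with VLX-1005. Gm42846 is opposite to Mxd4, a partner of MAX that opposes MYC, and ranged from 832 to 1129.7 CPM in M0 and from 31.2 to 58.03 CPM in M1. A230005M16Rik, opposite to the Myc-related gene Bmyc, had 596 CPM in M0 and 15.3 CPM in M1. C030034L19Rik, opposite to the zinc finger gene Zfp704, had 373 CPM in M0 and 13.5 CPM in M1. The remaining rows, opposite to Zfp608, Rora (a nuclear receptor) and Hdac11 (a histone deacetylase), had M0 means of 35.4 to 62.5 CPM and M1 means of 2.96 to 4.51 CPM.

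Gm45091 behaved differently within M0. It lies opposite to Cebpa, which encodes C/EBPα, a factor of the myeloid lineage, and shares 51 exonic bases with it. M0 vehicle libraries had 117, 529, 956 and 110.3 CPM and M0 VLX-1005 libraries 198, 154, 882 and 116 CPM. The values of M1 were 2.06, 5.16, 5.51 and 0.92 CPM with vehicle and 4.45, 9.58, 4.92 and 7.83 CPM with VLX-1005. The 3 highest M0 libraries were those that lay apart on the second principal component, which this row may itself have helped to set. No M1 library reached 10 CPM. The row of Cebpa itself had 14.1 CPM in M0 and 1.47 CPM in M1, and the log2 fold changes of Gm45091 were -6.46 ± 0.99 with vehicle and -5.17 ± 0.90 with VLX-1005.

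Promoter windows were available in the RefSeq table (build GRCm38.p6) for 83 of the 114 genes opposite to members, in 107 windows of 300 bases, from 250 bases before to 50 bases after each start. The windows of Sox4 (chr13:28953650-28953949, minus strand), Cebpa (chr7:35119043-35119342, plus strand) and Mxd4 (chr5:34187661-34187960, minus strand) are printed as examples of regulators that stand opposite to members. They read 5′ to 3′, with capitals marking matches on either strand to 4 short motifs, which do not overlap each other here. These were GAGGAA, the core bound by PU.1 and other ETS factors, and GGGCGG, the Sp1 box, which on the other strand reads CCGCCC. The others were CACGTG, an E-box bound by MYC/MAX and MiT/TFE factors that reads the same on both strands, and TATAAA, the element bound by TBP.
Sox4: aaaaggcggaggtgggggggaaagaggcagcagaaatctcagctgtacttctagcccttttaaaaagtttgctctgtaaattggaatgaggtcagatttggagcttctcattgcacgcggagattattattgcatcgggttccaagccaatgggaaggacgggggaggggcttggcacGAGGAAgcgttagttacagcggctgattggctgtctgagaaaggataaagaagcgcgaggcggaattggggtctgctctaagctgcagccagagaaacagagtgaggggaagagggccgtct
Cebpa: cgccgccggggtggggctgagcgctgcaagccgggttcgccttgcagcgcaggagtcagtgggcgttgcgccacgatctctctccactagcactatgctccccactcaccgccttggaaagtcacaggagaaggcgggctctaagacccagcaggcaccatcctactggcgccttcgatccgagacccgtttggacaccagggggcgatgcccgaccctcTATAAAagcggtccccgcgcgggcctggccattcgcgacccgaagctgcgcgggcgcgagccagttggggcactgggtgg
Mxd4: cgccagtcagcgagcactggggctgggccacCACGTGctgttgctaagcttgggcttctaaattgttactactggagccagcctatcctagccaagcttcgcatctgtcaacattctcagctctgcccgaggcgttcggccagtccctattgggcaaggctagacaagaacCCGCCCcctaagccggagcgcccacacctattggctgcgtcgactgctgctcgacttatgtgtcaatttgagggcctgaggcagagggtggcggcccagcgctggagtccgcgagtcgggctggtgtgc
The Sox4 window held 1 GAGGAA, that of Cebpa 1 TATAAA, and that of Mxd4 1 Sp1 box and 1 CACGTG. Over the 107 windows, CACGTG was in 14.02%, compared with 9.52% of the 1890 windows of genes opposite to the other rows with at least 20 CPM in M0 and 7.15% of all 32851 windows. GAGGAA was in 26.2%, 27.3% and 28.3%, GGGCGG in 56.1%, 65.8% and 35.7%, and TATAAA in 4.67%, 6.30% and 13.6% of the same 3 sets. The other 5 motifs searched on both strands were TGCTGA, a core bound by MAF factors, in 14.95%, 12.8% and 19.5%, TGANTCA, the AP-1 site, in 3.74%, 4.66% and 7.81%, and TTGCNNAA, the C/EBP site, in 7.48%, 7.78% and 10.8%. The interferon-stimulated response element was found in 4.67%, 2.65% and 3.44%, and the NF-kB site in 1.87% (2 of the 107 windows), 0.42% and 0.41%. These letters describe the windows only.

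Genes that act in G protein and small GTPase signaling stood opposite to 8 members. Amz1 is opposite to Gna12, which encodes a G protein α subunit that activates RhoA, and had 5969.9, 6238, 5715 and 5552 CPM in M0 vehicle and 5817, 6411, 5696 and 5581 CPM in M0 VLX-1005. Its M1 values were 512, 558, 588 and 608 CPM with vehicle and 544, 642, 589 and 599 CPM with VLX-1005. The groups were separated widely, with no M1 library at 1/8 of any M0 library, and the log2 fold changes were -2.90 ± 0.07 with vehicle and -2.82 ± 0.07 with VLX-1005. Gm15512 shares 1429 exonic bases with Arhgap22, a GTPase-activating protein for Rac1, and ranged from 1768 to 2019 CPM in M0 and from 91.1 to 129 CPM in M1. Gm37035 is opposite to P2ry1, an ADP receptor coupled to Gq. It had 375, 385, 448 and 347 CPM in M0 vehicle and 419.7, 303, 426 and 375 CPM in M0 VLX-1005. In the M1 libraries it had 3.09, 1.03, 3.68 and 0.92 CPM with vehicle and 3.56, 6.39, 4.92 and 1.96 CPM with VLX-1005. Its log2 fold changes were -6.94 ± 0.25 with vehicle and -6.00 ± 0.22 with VLX-1005, from M1 counts of 1 to 6 per library. 9130019P16Rik, whose exons also lie opposite to Prr15 and Wipf3, shares most bases with Chn2 (β-chimaerin, a Rac GTPase-activating protein) and had 200.4 CPM in M0 and 2.84 CPM in M1. The other 4 rows, opposite to Dgkg, Myo9b, Cdc42ep3 and Fgd1, had lower M0 means. Of these, Gm17315, opposite to the CDC42 effector gene Cdc42ep3, had 63.9 CPM in M0 and 5.13 CPM in M1.

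Ligands, receptors and carriers made up 10 members. Stard5 (chr7:83631959-83653127, plus strand) shares 1202 exonic bases with Il16, the gene of a cytokine that attracts CD4+ cells. It had 1298, 1491, 1102 and 1335 CPM in M0 vehicle and 1334, 1473, 1241 and 1366 CPM in M0 VLX-1005. The M1 libraries had 9.26, 14.5, 8.27 and 19.3 CPM with vehicle and 11.6, 24.5, 22.6 and 19.6 CPM with VLX-1005. No M1 library thus reached 1/40 of the lowest M0 library, and the log2 fold changes were -6.18 ± 0.16 with vehicle and -5.64 ± 0.15 with VLX-1005. Tmem255b is opposite to Gas6, the ligand through which TAM receptors recognize dying cells. Its M0 values were 714 to 1000.4 CPM, and in M1 it had 4.12, 23.7, 9.19 and 18.4 CPM with vehicle and 8.02, 27.7, 9.84 and 11.7 CPM with VLX-1005. Replicate 2 was the highest of each M1 group, at levels far below any M0 library. Hmgxb3, opposite to the M-CSF receptor gene Csf1r, was close to the threshold, with 223 to 285 CPM in M0 and 22.6 to 37.2 CPM in M1. The row of Csf1r itself had 239.8 CPM in M0 and 181 CPM in M1, a much smaller difference than that of Hmgxb3. Ccdc152, opposite to Selenop (a selenium carrier), had 82.5 CPM in M0 and 0.862 CPM in M1. Apol7d, opposite to Fn1 (fibronectin), Gm37804, opposite to Tgfb3, and Serbp1, opposite to the IL-12 receptor gene Il12rb2, had M0 means of 95.4, 54.6 and 170.3 CPM and M1 means of 6.69, 4.35 and 13.2 CPM. Pdgfa, Igf1 and Cxcl14 are named in this group for their own rows. Pdgfa had 96.5 CPM in M0 and 6.16 CPM in M1, Igf1 33.9 CPM in M0 and 1.7 CPM in M1, and the chemokine gene Cxcl14 31.2 CPM in M0 and 3.39 CPM in M1. No exon was annotated opposite to Igf1 or Cxcl14, whereas Pdgfa has exons of 6330403L08Rik opposite to it.

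Enzymes and transporters stood opposite to 8 members. Teddm2 shares 116 exonic bases with Glul, which encodes glutamine synthetase. It had 1739, 1593, 1320.2 and 1521 CPM in M0 vehicle, 1887, 1781, 1484 and 1756 CPM in M0 VLX-1005, 42.2, 73.3, 39.5 and 81.9 CPM in M1 vehicle and 52.5, 97.9, 50.2 and 79.3 CPM in M1 VLX-1005. Replicates 2 and 4 were the 2 highest in each M1 group, and the log2 fold changes were -4.23 ± 0.18 with vehicle and -4.15 ± 0.17 with VLX-1005. Dnajb13, opposite to the mitochondrial carrier gene Ucp2, had 326 CPM in M0 and 11.4 CPM in M1. Gm26542, opposite to Ltc4s, the enzyme that makes leukotriene C4, had 99.2 CPM in M0 and 4.65 CPM in M1. Tmem176a, opposite to the neighboring channel gene Tmem176b, had 557 CPM in M0 and 12.5 CPM in M1. The other rows were opposite to Ak3, Slc25a23, Slc15a4 and Slc16a9. In the insulin and growth pathway, rows opposite to the adaptor genes Irs1, Irs2 and Gab1, to Deptor (an mTOR inhibitor) and to Prkag2 (a subunit of AMPK) had M0 means of 25.4 to 67.4 CPM and M1 means of 0.123 to 6.75 CPM.

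Genes of cell division stood opposite to 7 members of low or middle level, with M0 means of 22.6 to 138 CPM. Exosc9, opposite to the cyclin gene Ccna2, had 47.3, 43.6, 39.9 and 58.5 CPM in M0 vehicle and 33.7, 46.3, 45.5 and 44.2 CPM in M0 VLX-1005. It was at 0 counts in all M1 vehicle libraries and had 0, 5.32, 0.984 and 0 CPM in M1 VLX-1005. Most of its M1 counts thus came from 1 library, M1 VLX-1005 2. Rccd1, opposite to Prc1 (a spindle midzone protein), had 138 CPM in M0 and 11.8 CPM in M1. Gm44985, opposite to the mitotic kinase gene Plk1, had 22.6 CPM in M0 and 0.366 CPM in M1. Cops6, opposite to the replicative helicase gene Mcm7, had 57.4 CPM in M0 and 4.95 CPM in M1. For 4 of these pairs the opposite gene's own row was the higher of the 2 in M0. The own rows had 87.9 CPM in M0 and 64.9 CPM in M1 for Ccna2, 232 CPM in M0 and 127 CPM in M1 for Ncapg, 75.2 CPM in M0 and 44.7 CPM in M1 for Mcm7 and 127 CPM in M0 and 73.03 CPM in M1 for Kif20a. Their differences between M0 and M1 were smaller than those of the member rows.

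Among the other abundant members, Gm17233 shares 94 exonic bases with Rcbtb2. It had 2964, 3044, 2842 and 2979 CPM in M0 vehicle, 3027, 2850.4, 2668 and 2852 CPM in M0 VLX-1005, 172, 189, 158 and 184 CPM in M1 vehicle and 167, 255, 179 and 181 CPM in M1 VLX-1005. The value of M1 VLX-1005 2 was above the other 7 M1 libraries. 1110046J04Rik, opposite to the protease inhibitor gene Serpinb6a, showed the same library on top, with M1 values of 221, 219.9, 227 and 204 CPM for vehicle and 200.4, 253, 209 and 204 CPM for VLX-1005 against 1698 to 2032 CPM in M0. Gm45449, opposite to Rnf150, had 878, 899, 728 and 832 CPM in M0 vehicle and 758, 866, 689 and 778 CPM in M0 VLX-1005. Its M1 values were 3.09, 2.06, 3.68 and 4.6 CPM with vehicle and 6.23, 3.19, 4.92 and 7.83 CPM with VLX-1005, with log2 fold changes of -7.43 ± 0.17 with vehicle and -6.59 ± 0.16 with VLX-1005.

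**Figure D3:**
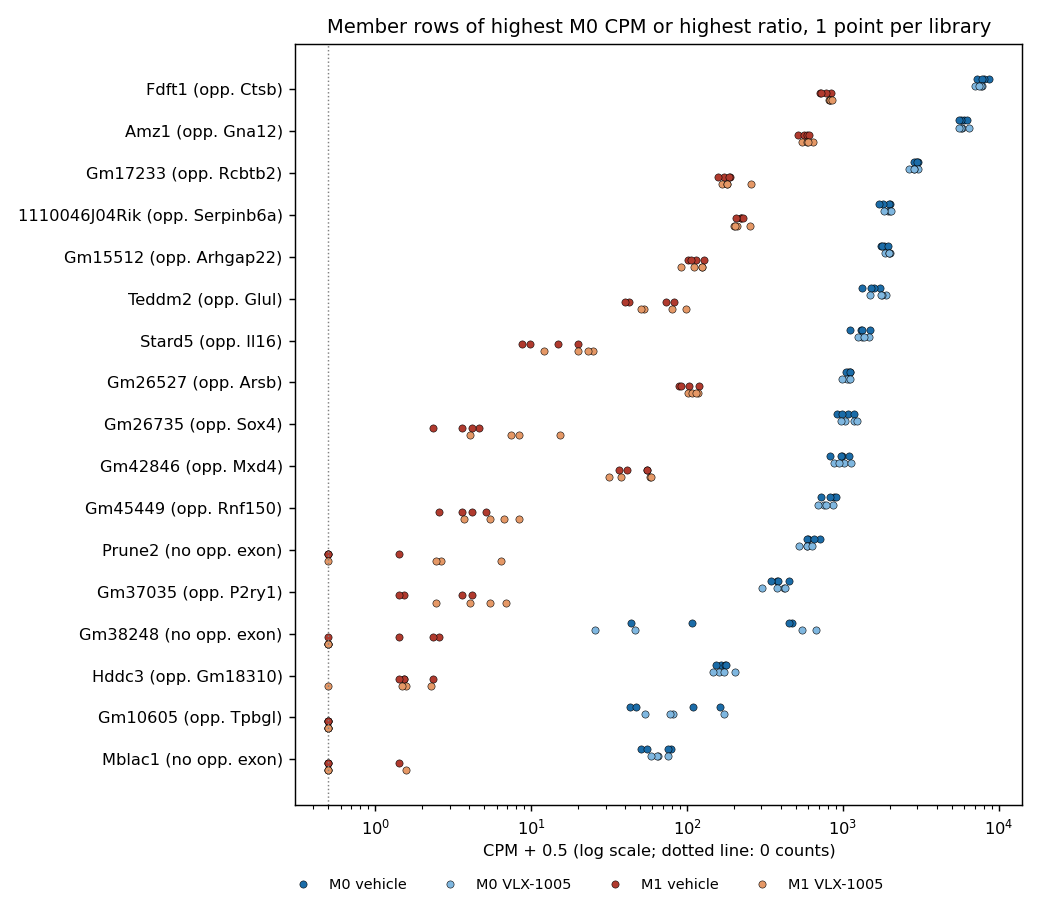
CPM plus 0.5 (x axis, log scale) of 17 members among those of highest M0 mean or highest ratio, with 1 point per library and 4 libraries per group. M0 libraries (blue) lie to the right of M1 libraries (red and orange) in every row, Gm38248 and Gm10605 spread widely within M0, and points on the dotted line are libraries with 0 counts.

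The lowest M1 levels were at or near 0. No counts were found in any M1 library for Gm10605, opposite to Tpbgl, for Gm16268, opposite to the hyaluronan receptor gene Stab2, and for Nat8l, which makes N-acetylaspartate. Their M0 means were 92.7, 37.4 and 21.0 CPM. Set against 3 counts over the 8 M1 libraries (0.365 CPM, counting error only), they were at least 254-fold, 102-fold and 57.6-fold lower in M1. Rows with no annotated opposite exon, of which there were 19, included Prune2, with 712, 598, 587 and 655 CPM in M0 vehicle and 586, 590.2, 525 and 631 CPM in M0 VLX-1005. It had counts in 1 of 4 M1 vehicle libraries (0.919 CPM in replicate 3) and in 3 of 4 M1 VLX-1005 libraries (0, 2.13, 1.97 and 5.87 CPM). Mblac1, also without an opposite exon, had 64.97 CPM in M0 and 0.248 CPM in M1, and Rmdn1, which lies 1371 bases from Wwp1 on the other strand, had 358 CPM in M0 and 6.72 CPM in M1. Hddc3, opposite to Gm18310 and to the Golgi mannosidase gene Man2a2, had 146 to 201 CPM in M0 and at most 1.84 CPM in M1.

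Some members shared a target or overlapped each other and are not separate measurements. Gm10392 and Trp53i13 both lie opposite to Abhd15, with 571 and 176 CPM in M0 and 13.7 and 5.48 CPM in M1. Gm13709 and Gm13703 both lie opposite to Gpr155. The pairs B630019A10Rik and BC106179, Ptchd1 and Gm15156, and Eps8l3 and 4933431E20Rik are members on opposite strands of the same place. BC106179 had 254 CPM in M0 and 5.5 CPM in M1, and B630019A10Rik, across 1582 shared bases, had 42.2 CPM in M0 and 0.941 CPM in M1. Of Eps8l3 and 4933431E20Rik, the second was the higher, with 105 CPM in M0 and 6.39 CPM in M1.

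Most members were even across M0 libraries. The highest M0 library was under 2 times the lowest in 103 members, and the median of this ratio was 1.55. In 10 members it was at least 4. The 3 M0 libraries that lay apart (replicate 3 of both treatments and M0 vehicle 2) had a mean at least 2 times that of the other 5 in 10 members (7.41%), compared with 3.52% of the 2360 rows with at least 20 CPM in M0. All 3 were above the other 5 in 19 members (14.07%), beside 10.3% of those 2360 rows. The 3 libraries were picked on a component of the 500 most variable rows, which may include members. These shares are therefore not independent of how the libraries were picked. Gm43474, opposite to the endolysosomal transporter gene Slc15a4, had 17.6, 153, 380.1 and 12.3 CPM in M0 vehicle and 27.6, 30.6, 330.0 and 11.04 CPM in M0 VLX-1005. Its M1 values were 2.76 to 12.9 CPM, and the M0 libraries that did not lie apart had 11.04 to 30.6 CPM. Gm9768, opposite to Klhl21, and Mgme1, opposite to the sorting nexin gene Snx5, shared this pattern, with 14.8, 78.9, 154 and 16.97 CPM and 44.5, 236, 424 and 45.3 CPM in the M0 vehicle libraries. Gm38248 did not follow it, with 108, 471, 43.4 and 453 CPM in M0 vehicle and 25.04, 668, 548 and 46.2 CPM in M0 VLX-1005. Haus8 rested on 1 library, M0 VLX-1005 3, with 218 CPM against 1.85 to 66.0 CPM in the other 7. Without the 3 libraries that lay apart the rule gave 128 members, 124 of them among the 135.

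Whether 12-LOX inhibition changed these rows was tested within M0 and within M1. The edgeR quasi-likelihood test, adjusted over 3453 rows, included all 135 members. In M0, 0 members passed an adjusted p of 0.05 with edgeR (0% of all tested rows did), and 0 passed with DESeq2 or limma-voom. At an unadjusted p under 0.05 there were 4 members by edgeR (2.96%, beside 2.98% of all rows), 3 by DESeq2 (2.22%, beside 2.14%) and 8 by limma-voom (5.93%, beside 3.33%). The edgeR count was 1 without M0 VLX-1005 2 (beside 88 of 3601 rows) and 10 without M0 VLX-1005 3 (beside 201 of 3583 rows). The median log2 fold change of the members was -0.02, with 54 members above 0. It was 0.01 without M0 vehicle 2 (74 above 0) and 0.03 without the 3 libraries that lay apart (77 above 0), so its sign depended on the libraries used. Among the 4 members of edgeR, Gm36569, opposite to Fam198b, was at -0.36 ± 0.14 (unadjusted p = 0.0160, adjusted p = 1, edgeR), with 183, 168, 159 and 192 CPM with vehicle and 147, 106, 128 and 169.7 CPM with VLX-1005. Dnajb13, opposite to Ucp2, was at 0.25 ± 0.10 (unadjusted p = 0.0235, adjusted p = 1, edgeR).

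In M1, 0 members passed an adjusted p of 0.05 with edgeR (0% of all tested rows did), and 0 passed with DESeq2 or limma-voom. Unadjusted p-values under 0.05 were found for 13 members by edgeR (9.63%, beside 3.71% of all tested rows), 10 by DESeq2 (7.41%, beside 2.75%) and 6 by limma-voom (4.44%, beside 3.1%). Without M1 VLX-1005 1 the edgeR count was 21, beside 165 of 3599 rows. Of the 13, 9 were higher with VLX-1005 (6.67% of the members, beside 2.14% of all rows). Of all members, 88 (65.2%) had a log2 fold change above 0, beside 49.3% of all rows. This count includes the 3 members without counts in any M1 library, whose estimates exceed 0 only by numerical error. By mean CPM, 84 members were higher with VLX-1005 and 48 lower. The median was 0.12 over members and -0.003 over all rows. Without M1 VLX-1005 2 the member median was 0.06, and without M1 vehicle 1 it was 0.06 as well. Many members had few counts, and 67 of them averaged under 5 counts per M1 library. Among them 62.7% were above 0, beside 55.5% of all tested rows of that level, and both shares count the same 3 members as above 0. Among the 68 members with at least 5 counts per M1 library it was 67.6%, beside 48.5%. With the M1 libraries fitted alone, 37 members stayed in the test. The others passed the low-count filter only when M0 libraries were included. Of the 37, 1 had an unadjusted p under 0.05 (edgeR), beside 93 of 2651 rows. Their median log2 fold change was 0.09, beside -0.001 over those rows. These shares describe the libraries, and no adjusted test passed.

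**Figure D4:**
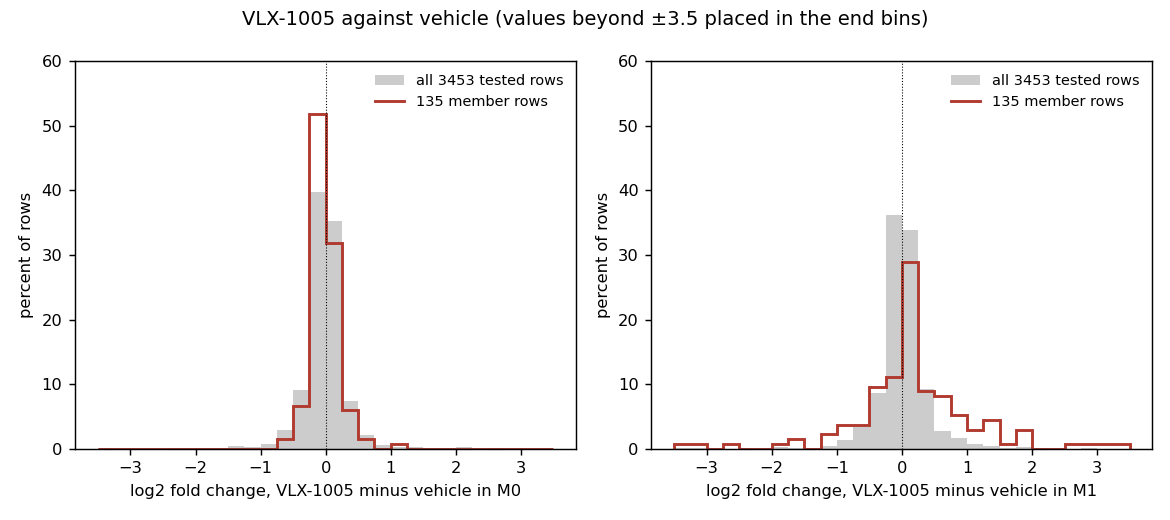
Distribution of the log2 fold change of VLX-1005 against vehicle (x axis, bins of 0.25) in M0 (left) and M1 (right), as percent of rows (y axis), for 135 member rows (red line) and all 3453 tested rows (grey). In M1 the members spread more widely, at lower counts, with 65.2% above 0, a share that includes 3 members without M1 counts.

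The members of smallest p in M1 were all higher with VLX-1005. Gm26751, opposite to Nynrin, had 20.6, 19.6, 22.1 and 18.4 CPM in M1 vehicle and 24.05, 54.3, 38.4 and 33.3 CPM in M1 VLX-1005. Its groups did not overlap, and the log2 fold change was 0.88 ± 0.23 (unadjusted p = 0.00107, adjusted p = 0.998, edgeR). Without M1 VLX-1005 2 it was 0.67. Gm47512, opposite to Tspyl4, had 4.12, 4.13, 7.35 and 5.52 CPM with vehicle and 7.12, 19.2, 14.8 and 8.81 CPM with VLX-1005, so the lowest VLX-1005 library lay within the vehicle range. Its log2 fold change was 1.19 ± 0.35 (unadjusted p = 0.00238, adjusted p = 0.998, edgeR). Prune2, at 0 in 3 of 4 vehicle libraries and 1 VLX-1005 library, was at 2.90 ± 0.96 (unadjusted p = 0.00616, adjusted p = 0.998, edgeR). Leaving out single libraries gave 2.05 to 4.72. Gm26735, opposite to Sox4, and Stard5, opposite to Il16, were at 1.33 ± 0.44 and 0.59 ± 0.26 (unadjusted p = 0.00638 and 0.0373, adjusted p = 0.998, edgeR). Members at an unadjusted p under 0.05 that were lower with VLX-1005 included Dnajb13, opposite to Ucp2, at -0.67 ± 0.23 (unadjusted p = 0.0250, adjusted p = 0.998, edgeR). The others were Gm38033, opposite to Cnnm3, at -1.01 ± 0.42, Gm29477, opposite to Fam117a, at -1.59 ± 0.64, and Serbp1, opposite to Il12rb2, at -0.60 ± 0.25 (unadjusted p = 0.0235, 0.0261 and 0.0300, adjusted p = 0.998, edgeR). None of these passed the adjustment.

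**Figure D5:**
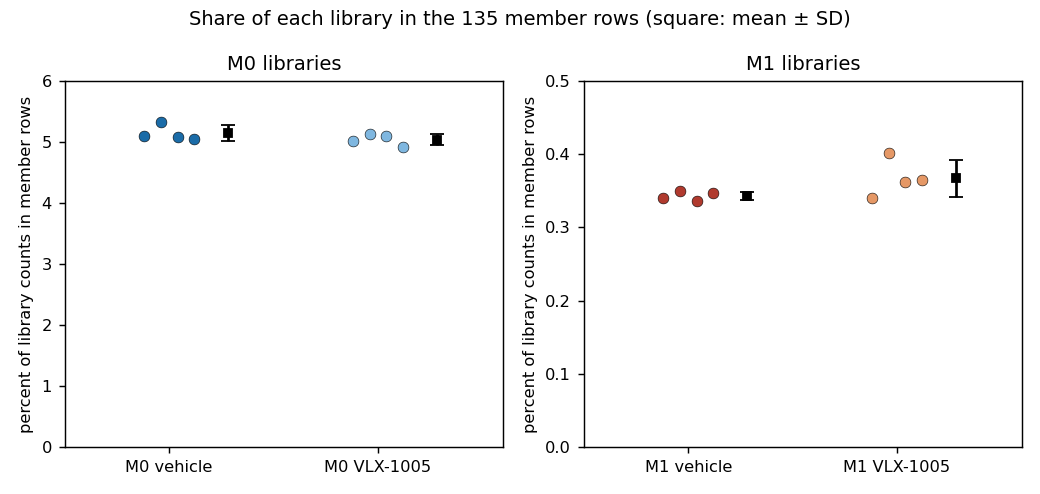
Percent of each library's counts in the 135 member rows (y axis, from 0, different ranges for M0 and M1), with 1 point per library, ordered by replicate number, and squares for mean ± SD of 4 libraries. M0 libraries lie between 4.92% and 5.33%, and in M1 the highest is M1 VLX-1005 2 at 0.402%.

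As a share of the library, the 135 rows summed to 5.14% ± 0.131 in M0 vehicle and 5.04% ± 0.0955 in M0 VLX-1005 (SD, n = 4). In M1 the shares of the vehicle libraries were 0.340%, 0.349%, 0.336% and 0.346%, and those of the VLX-1005 libraries 0.340%, 0.402%, 0.362% and 0.364%. The means were 0.343% ± 0.00586 and 0.367% ± 0.0256, and the ranges overlapped. Same-numbered M1 libraries deviated together, and within these 4 pairs the share was higher with VLX-1005 each time, by 0.000769, 0.0529, 0.0252 and 0.0180 percentage points in replicates 1 to 4. The first of these differences was far smaller than the others, and the sum was not tested. The 3 most abundant rows, Fdft1 and Amz1 among them, held 39.0% of the members' M0 counts, so these sums follow few rows. Without these rows, the share in replicate 1 was 0.1479% in M1 vehicle and 0.1475% in M1 VLX-1005, so the order of this pair reversed. In the other replicates of M1 it stayed higher with VLX-1005.

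Whether the fall from M0 to M1 differed between VLX-1005 and vehicle was tested as an interaction. Here too, 0 members passed an adjusted p of 0.05 with edgeR (0% of tested rows), DESeq2 or limma-voom. Unadjusted p-values under 0.05 were found for 13 members by edgeR (9.63%, beside 4.29% of all rows), 11 by DESeq2 (8.15%, beside 3.1%) and 9 by limma-voom (6.67%, beside 3.85%). Without M1 VLX-1005 1 the edgeR count was 20, beside 169 of 3599 rows. In 12 of the 13 the estimate was above 0, that is, the fall was the smaller with VLX-1005 (8.89%, beside 2.4% of all rows). The exception was Dnajb13, opposite to Ucp2. It had 305, 295, 286 and 302 CPM in M0 vehicle, 339, 387, 331 and 366 CPM in M0 VLX-1005, 7.2, 16.5, 16.5 and 15.6 CPM in M1 vehicle and 8.91, 8.51, 8.85 and 8.81 CPM in M1 VLX-1005. In M0 all VLX-1005 libraries thus lay above all vehicle libraries, and in M1 3 of 4 vehicle libraries lay above all VLX-1005 libraries. The interaction was -0.92 ± 0.25 (unadjusted p = 0.00240, adjusted p = 1, edgeR). Gm47512 was at 1.28 ± 0.40 (unadjusted p = 0.00396, adjusted p = 1, edgeR). Fdft1, opposite to Ctsb, was at 0.20 ± 0.10 (unadjusted p = 0.0463, adjusted p = 1, edgeR). Over all members the median interaction was 0.16, with 81 (60%) above 0 beside 50.3% of all rows. The median was 0.06 without M1 vehicle 1, 0.10 without M0 vehicle 3 and 0.22 without M1 vehicle 2.

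Pathway lists gave the surroundings of these rows. Of 317 listed genes in 13 lists, 55 had a tested row opposite to them, and 11 of those rows were members. Among the 44 that were not members, 24 fell and 11 rose between M0 and M1 with vehicle (edgeR, adjusted p under 0.05), and 23 fell and 11 rose with VLX-1005. Over all 3453 rows, 34.8% fell and 31.7% rose with vehicle, and 33.8% fell and 31.5% rose with VLX-1005. Of 6 lysosomal genes with such a row outside the members, 4 fell and 1 rose with vehicle. The row opposite to Ctsa (protective protein/cathepsin A), which is that of Pltp, was at -1.66 ± 0.07 (edgeR, adjusted p = 1.33e-15). Of the rows opposite to 4 cell cycle genes, 3 fell, among them that of Ccnd1 (cyclin D1) at -1.68 ± 0.08 (edgeR, adjusted p = 4.85e-14). The own row of Ccnd1 rose, at 0.86 ± 0.13, and so did that of Gins2, at 0.51 ± 0.07 (edgeR, adjusted p = 6.01e-06 and 1.43e-06), whose opposite row was also among the 3 that fell. Over the 9 own rows of this list 1 fell and 2 rose with vehicle, and over the 79 own rows of all lists 30 fell and 22 rose. Of 6 macrophage transcription factors, 4 fell and 1 rose with vehicle and 3 fell and 1 rose with VLX-1005, with the row opposite to Bhlhe41 at -2.58 ± 0.15 and that opposite to Cebpb at 2.41 ± 0.19 with vehicle (edgeR, adjusted p = 4.27e-13 and 1.12e-10). Of 4 pattern recognition genes, which included no member, 3 rose and 0 fell. Their opposite rows included those of Myd88 (an adaptor of Toll-like receptors) at 2.05 ± 0.07 and Irak2 at 2.09 ± 0.08 (edgeR, adjusted p = 3.32e-17 and 1.64e-16). Of 4 cholesterol synthesis genes with such a row outside the members, 3 fell and 0 rose with either treatment. Of 7 genes of the TCA cycle and oxidative phosphorylation, 2 fell and 3 rose with vehicle, and 2 fell and 2 rose with VLX-1005. With vehicle, 1 of 1 scavenger receptor and efferocytosis gene fell, as did 1 of 1 chemoattractant receptor gene and 2 of 2 lipid handling genes. Of 2 growth factor and cytokine receptor genes 1 fell and 1 rose, of 4 iron and heme genes 1 fell and 1 rose, and the 1 alternative activation gene rose.

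The thresholds passed through a continuous range of values. Just inside the ratio threshold were Cxcl14 (8.02), Lamtor4 (8.02), Tbrg1 (8.21), Brsk1 (8.31), Gm10138 (8.34) and Hmgxb3 (8.39). Just outside were Gm43909, opposite to Bhlhe41 (7.91), Gm38336, opposite to Arhgef4 (7.83), and Gm15819, opposite to Rell1 (7.80). By M0 level, Gm7097 (20.6 CPM), Nat8l (21.0 CPM) and Gm26702 (21.1 CPM) were inside, and Gm14573 (19.4 CPM), Gm43573 (19.3 CPM) and Ccdc127 (19.2 CPM) were outside.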

How the data were processed

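RNA from BMDMs was measured in 16 libraries (4 groups of 4, grouped by the submitters' labels). The authors prepared strand-specific polyA libraries, sequenced them on a NovaSeq, and in Galaxy used HISAT2 for alignment to mm10 and HTSeq-count for counting. The submitters' processing notes list Trimmomatic, FastQC and DESeq2 as well. Versions, annotation release and strand handling are not given in the sources used here. What the authors deposited were whole-number counts for 48440 gene rows, without normalization or filtering. Symbols and exons came from GENCODE release M21 (mouse), which held 48058 rows; the other 382 had 0.470% of the counts.

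The members, gene lists and role groups were chosen with earlier results of these data known, and the role groups and printed promoters after values were seen. Members named in the text were the 12 of highest M0 CPM, the 8 of highest ratio, those at 0 counts in M1, those next to the thresholds, those opposite to listed genes, the 3 of smallest p per test, and those sharing a target. Others were added after their values were seen. The results of 1 member that this rule names and of 1 gene list are not reported here. Rows were filtered by filterByExpr (3453 left) and TMM-normalized. The quasi-likelihood test of edgeR 4.0.16 (R 4.3.3) compared the 4 groups in a single model, with Benjamini-Hochberg adjustment. DESeq2 1.42.0 and limma-voom 3.58.1 were alternatives, as were other filters, scalings and thresholds, a replicate block, and leaving out libraries. Scripts were tested on simulated data. Replicates differed by more than sampling noise. The labels give the groups the same replicate numbers. Deviations of same-numbered vehicle and VLX-1005 libraries correlated at 0.13 to 0.23 in all 4 M1 pairs, at 0.07 to 0.68 in M0 (over 0.1 in 3 of 4 pairs), and at -0.17 to 0.07 between M0 and M1, so the numbers pair the M1 libraries; the pairing is read from the data, as no source says what a number marks. Figures were drawn with matplotlib 3.10.9.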

Additional observations from a re-analysis of the deposited data

Results flagged for a closer look

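In groups of 4 libraries, 7 of the 76 groups examined had 1 library far from the other 3 by Dixon's criterion, which chance gives in about 1 group in 20. M1 VLX-1005 2 stood high for Gm17233 (255.4 CPM, others 167 to 181 CPM), for 1110046J04Rik (253.3 CPM, others 200.4 to 209 CPM) and for Mblac1 (1.06 CPM, others at 0 counts). This library also had the lowest coordinate of the M1 libraries on the first principal component (37.4, others 39.0 to 41.5). In M1 vehicle, Prune2 had 0.919 CPM in replicate 3 and Mblac1 0.920 CPM in replicate 4, with the other 3 libraries at 0 counts in both rows, and Hddc3 had 1.84 CPM in replicate 4 against 0.919 to 1.03 CPM. These 3 values and that of Mblac1 in M1 VLX-1005 2 stand for 1 or 2 counts. M0 vehicle 2 held 5.33% of its counts in the member rows, beside 5.05% to 5.10% in the other M0 vehicle libraries.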

How the results depend on the processing

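The number of member rows followed the thresholds and the scaling. It was 318 at a ratio of 4, 67 at a ratio of 16, 88 with DESeq2 size factors and 96 with TMM-scaled library sizes, 170 at 10 CPM and 92 at 50 CPM. Vehicle libraries alone gave 148 members and VLX-1005 libraries alone 138, with 126 and 124 in common with the 135. Without single libraries it was 132 to 140. Members past an adjusted p of 0.05 for VLX-1005 against vehicle in M0, in M1 and for the interaction were 0 to 0 without single libraries, and 0 under every other setting that could be run. Without a low-count filter 1 of 17769 rows passed in M0, and it was no member. Fitting the M1 groups alone left 37 members tested, of which 1 had an unadjusted p under 0.05, beside 93 of 2651 rows. With a replicate block over all groups, 0 members passed. In M0, in M1 and for the interaction, 4, 14 and 14 of 135 members had an unadjusted p under 0.05, beside 109, 140 and 159 of all 3453 rows. With a replicate block within each state, added after seeing the data, 0 members passed. At an unadjusted p under 0.05 there were 13, 14 and 17 members, beside 175, 180 and 226 of all 3453 rows. Over all 55 listed genes with an opposite row, the 11 members included, 35 fell with vehicle and 34 with VLX-1005. Without single libraries, those that fell numbered 34 to 36 with vehicle and 34 to 35 with VLX-1005, and those that rose 10 to 11 and 9 to 12. The rule chose the members as rows that fall, so these counts are partly set by it. The 44 rows that were not members were not recounted in this way. Of the fold changes of single members recomputed, 0 changed sign. Most of these were M1 against M0 changes, whose sign the rule had fixed, and the rest were of members picked for small p. Unchanged signs therefore say little about stability. Of these fold changes and the member medians, 20 moved past a limit set from their spread and 1184 did not. The median over members in M0 changed sign (-0.04 to 0.01 without single libraries). Depth limits M1 most, where the median member had 5 counts per library and a coefficient of variation of 50.2% with vehicle, beside 14.9% in M0. The setting without the 3 M0 libraries that lay apart was chosen after seeing the data.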
